A study of Saccharomyces bayanus x Saccharomyces cerevisiae with 8 samples.

Results

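The 10 genes described here make pantothenate (vitamin B5), take it up, and turn it into coenzyme A in yeast. All 10 were found among the 4238 pairs of orthologs in the deposited table. The list follows the pathway, but it was chosen with allele ratios from these data already known, that of PAN6 in particular. The allele ratios of the 10 genes are therefore given as a description, with standard errors and without p-values, and counts of calls among them are printed only beside the share of all genes. The other measures, namely the total level and the changes between cultures and sequencing sites, are not part of the rule by which the genes were chosen.

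Expression was measured by RNA sequencing in OZY27, a hybrid yeast strain. Its Saccharomyces cerevisiae parent was isogenic to W303, with the mutations his3, leu2, lys2, trp1 and also ura3. Its Saccharomyces bayanus parent came from CBS 4001 and carried ade2, his3 and lys2. None of the 10 genes is among these marker mutations. OZY27 was grown in 2 cultures at 25°C in YPD, a rich glucose medium, and taken in log phase, and each culture gave 1 library. The 8 samples are lanes of these libraries: lanes 1, 2 and 5 (run at UCB) and 6 and 8 (run at UCR) hold culture 1, and lanes 3 and 4 (UCB) and 7 (UCR) hold culture 2. Lanes are repeat runs, so n = 2 for every mean of cultures, and p-values between cultures measure only the spread between lanes. Each lane held between 2350222 and 3159446 reads assigned to an allele. Both alleles sit in the same cells.

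Yeast builds pantothenate from pantoate, which comes from the valine precursor ketoisovalerate, and from beta-alanine, which comes from the breakdown of the polyamine spermine. Pantothenate can also be imported. A chain of enzymes then phosphorylates it, adds cysteine, removes a carboxyl group and attaches nucleotide parts to give coenzyme A, the carrier of acetyl and other acyl groups in central metabolism. Rich media contain pantothenate.

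By the sign of the fitted ratio, the S. bayanus allele was the higher one in 7 of the listed genes, against 49.9% of all tested genes. The list was chosen with allele ratios known, so this count is a description and nothing is read from it. The largest ratios belonged to FMS1, PAN6, CAB1 and FEN2, which supply beta-alanine, join it to pantoate, start the use of pantothenate and import it. The last enzymes of the pathway, CAB4 and CAB5, had higher S. cerevisiae alleles. ECM31 and PAN5, which make pantoate, were near balance. Ratios are given as log2 of S. bayanus minus S. cerevisiae, after each genome was scaled to its own total with TMM factors (a trimmed mean that sets the typical gene to a ratio near 1) and each ortholog to its mappable length. A gene is said to be called when its p from edgeR's quasi-likelihood test, adjusted over all 4197 tested genes, is under 0.05.

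In this allele test 8 of the 10 genes were called, where 53.5% of all tested genes were. Without lane 7 the count was 7, as CAB3 was lost at a log2 ratio of 0.30, and 2083 of all tested genes were called. With DESeq2 the count was 6, as CAB2 and CAB3 were lost, and 1501 of all tested genes were called. Both figures stand against 2247 in the main test. Of the 8, 6 had the higher S. bayanus allele, against 26.6% of all tested genes, and 2 the higher S. cerevisiae allele, against 26.9%. At 2-fold or more, 3 of the 10 were called toward S. bayanus, against 6.55% of all tested genes. With 1 library size for both alleles, calls over all tested genes split into 1320 toward S. bayanus and 813 toward S. cerevisiae, against 1118 and 1129, and the median gene shifted to 0.11, while the 10 genes still split into 6 and 2. The count at 2-fold turns on FEN2, which lay just under this limit at 1.98-fold, next to CAB1 at 2.72-fold above it. The log2 ratio of FEN2 was 1.02 without lane 3, 1.01 without lane 5, lane 6 or lane 8, 1.07 with UCB lanes only and 1.10 with 1 library size, each of which passes the limit. Because the list was drawn up with allele ratios known, nothing is read from these counts and shares. The median log2 ratio was 0.37 over the 10 genes and -0.00 over all tested genes, and the median size of the ratio was 0.65 and 0.37.

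**Figure D1:**
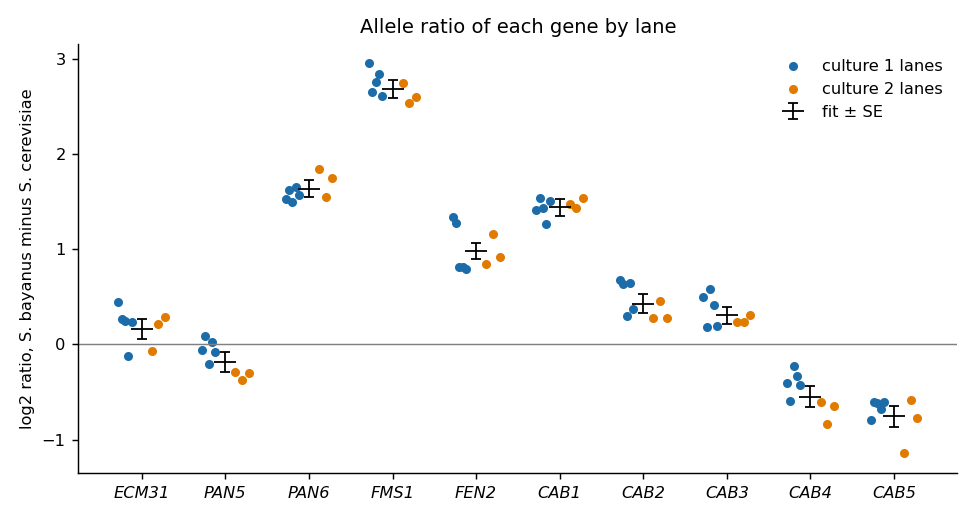
Log2 allele ratio (S. bayanus minus S. cerevisiae) for each gene, with 1 point per sequencing lane (5 lanes of culture 1, 3 of culture 2) and the fitted ratio with its standard error in black. FMS1, PAN6, CAB1 and FEN2 lie above 0 in 8 of 8 lanes, CAB4 and CAB5 lie below 0 in 8 of 8, and the lanes of ECM31 and PAN5 fall on both sides.

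The synthesis of pantoate comes first. ECM31 (YBR176W) encodes the ketopantoate hydroxymethyltransferase, which adds a one-carbon unit to ketoisovalerate. Its S. bayanus allele had 708 reads in culture 1 and 308 in culture 2, and its S. cerevisiae allele 583 and 256. The log2 ratio was 0.20 in culture 1 and 0.12 in culture 2 (fit 0.16, SE 0.10). Single lanes ran from -0.12 to 0.44, with the S. bayanus allele higher in 6 of 8. PAN5 (YHR063C) encodes the ketopantoate reductase, which turns ketopantoate into pantoate. It had 1325 and 587 S. bayanus reads and 1309 and 665 S. cerevisiae reads. The S. bayanus share of these reads was 50.3% (48.4 to 52.2, exact 95% binomial interval) in culture 1 and 46.9% (44.1 to 49.7) in culture 2. The fitted log2 ratio was -0.19 (SE 0.10). Such intervals reflect the counting of reads alone, because PCR copies of a molecule could not be recognised.

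PAN6 (YIL145C) encodes pantothenate synthase, which joins pantoate and beta-alanine. In lanes 1, 2, 5, 6 and 8 of culture 1 its S. bayanus allele had 1031, 1092, 1058, 1136 and 1080 reads, and its S. cerevisiae allele 347, 343, 359, 341 and 345. In lanes 3, 4 and 7 of culture 2 the counts were 1285, 1027 and 1007 against 329, 317 and 264. The lowest S. bayanus level of any lane lay far above the highest S. cerevisiae level, at 743 against 300.5 RPKM (reads per kilobase of mappable length, scaled to 1000000 reads of that genome). The share of S. bayanus reads was 75.7% (74.7 to 76.7) in culture 1 and 78.5% (77.2 to 79.7) in culture 2. The fitted log2 ratio was 1.64 (SE 0.09), a 3.11-fold difference, and 105 of the 4197 tested genes had a higher ratio toward S. bayanus. Both orthologs of PAN6 have 876 mappable bases, so length does not enter this ratio.

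FMS1 (YMR020W) encodes the polyamine oxidase that splits spermine and thereby feeds beta-alanine synthesis. Its S. bayanus allele had 372, 426, 386, 410 and 398 reads in lanes 1, 2, 5, 6 and 8 and 449, 462 and 369 in lanes 3, 4 and 7. Its S. cerevisiae allele had 47, 66, 55, 54 and 62 reads in the lanes of culture 1 and 62, 72 and 54 in those of culture 2. The alleles did not overlap in any lane. The S. bayanus allele stood at 196 ± 27.4 (SD, n = 2) and the S. cerevisiae allele at 30.7 ± 5.91 RPKM. This was the largest ratio of the 10 genes, with a fitted log2 value of 2.68 (SE 0.10), or 6.42-fold, and 35 tested genes had a higher one. The S. bayanus share was 87.5% (86.1 to 88.9) in culture 1 and 87.2% (85.4 to 88.9) in culture 2.

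FEN2 (YCR028C) encodes the plasma membrane symporter that imports pantothenate. The S. bayanus allele had 357, 357, 270, 306 and 328 reads in lanes 1, 2, 5, 6 and 8, and the S. cerevisiae allele 138, 144, 148, 165 and 180. In lanes 3, 4 and 7 the counts were 371, 419 and 269 against 192, 171 and 126. The S. bayanus allele was higher in 8 of 8 lanes, at a fitted log2 ratio of 0.98 (SE 0.09), or 1.98-fold. The cultures had nearly the same ratio, 0.99 and 0.98, while lanes of culture 1 ranged from 0.80 to 1.34. The UCB lanes alone gave 1.07 and the UCR lanes alone 0.85.

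The CAB genes turn pantothenate into coenzyme A. CAB1 (YDR531W) encodes pantothenate kinase, which catalyses the first and committed step. It had 385, 414, 352, 379 and 390 S. bayanus reads in lanes 1, 2, 5, 6 and 8 against 136, 134, 121, 144 and 126 S. cerevisiae reads. In lanes 3, 4 and 7 it had 395, 354 and 333 against 127, 115 and 98. The levels of the alleles did not overlap, at 284 or more against 119 or less RPKM over the 8 lanes. The fitted log2 ratio was 1.44 (SE 0.09), or 2.72-fold, with 1.41 in culture 1 and 1.48 in culture 2.

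CAB2 (YIL083C) and CAB3 (YKL088W) act next. CAB2 encodes the phosphopantothenoylcysteine synthetase, which adds cysteine, and had 1038 and 491 S. bayanus reads against 684 and 349 S. cerevisiae reads in cultures 1 and 2. Its fitted log2 ratio was 0.43 (SE 0.10), or 1.35-fold, and the S. bayanus allele was higher in 8 of 8 lanes. CAB3 encodes a subunit of the decarboxylase that acts on the product of CAB2. It had 1903 and 1034 reads against 1446 and 805, at a log2 ratio of 0.31 (SE 0.09), or 1.24-fold. The levels of its alleles overlapped between lanes, and CAB3 shares sequence with its partners SIS2 and VHS3, so some of its reads may be assigned with less certainty.

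CAB4 (YGR277C) and CAB5 (YDR196C) finish the pathway, and both had the higher allele on the S. cerevisiae side. CAB4 encodes the phosphopantetheine adenylyltransferase. Its S. bayanus allele had 766 and 348 reads and its S. cerevisiae allele 996 and 523, for log2 ratios of -0.42 and -0.70 in cultures 1 and 2 and a fitted value of -0.55 (SE 0.11), or 1.46-fold. CAB5 encodes the dephospho-coenzyme A kinase, with 468 and 209 S. bayanus reads against 737 and 355. Its fitted log2 ratio was -0.76 (SE 0.11), or 1.69-fold toward S. cerevisiae, with lanes between -1.15 and -0.59. The S. bayanus share of CAB5 reads was 38.8% (36.1 to 41.7) in culture 1 and 37.1% (33.1 to 41.2) in culture 2.

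**Figure D2:**
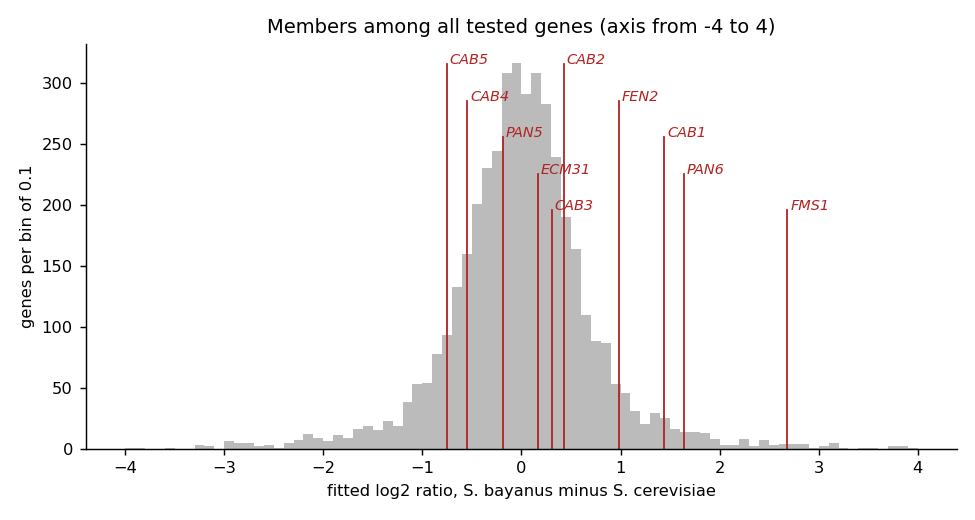
Histogram of the fitted log2 allele ratio over tested genes in bins of 0.1, drawn from -4 to 4 (25 genes lie outside), with the 10 genes as red lines whose heights only separate the labels. FMS1 at 2.68, PAN6 at 1.64 and CAB1 at 1.44 lie in the right tail, while CAB5 at -0.76 and CAB4 at -0.55 lie on the left flank of the main peak.

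The order of the genes differed between the genomes. Levels are given in RPKM, so that genes can be compared. PAN6 was the highest of the 10 in either genome, at 848 ± 92.2 for the S. bayanus allele and 272 ± 7.87 for the S. cerevisiae allele (SD, n = 2). FMS1 was the third highest among the S. bayanus alleles and the lowest among the S. cerevisiae alleles. CAB5 was the lowest S. bayanus allele, at 91.6 ± 10.7, and the fourth highest S. cerevisiae allele, at 155 ± 4.85. The highest allele exceeded the lowest 9.25-fold in S. bayanus and 8.84-fold in S. cerevisiae. The median over all tested genes was 92.0 for S. bayanus alleles and 91.1 for S. cerevisiae alleles.

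**Figure D3:**
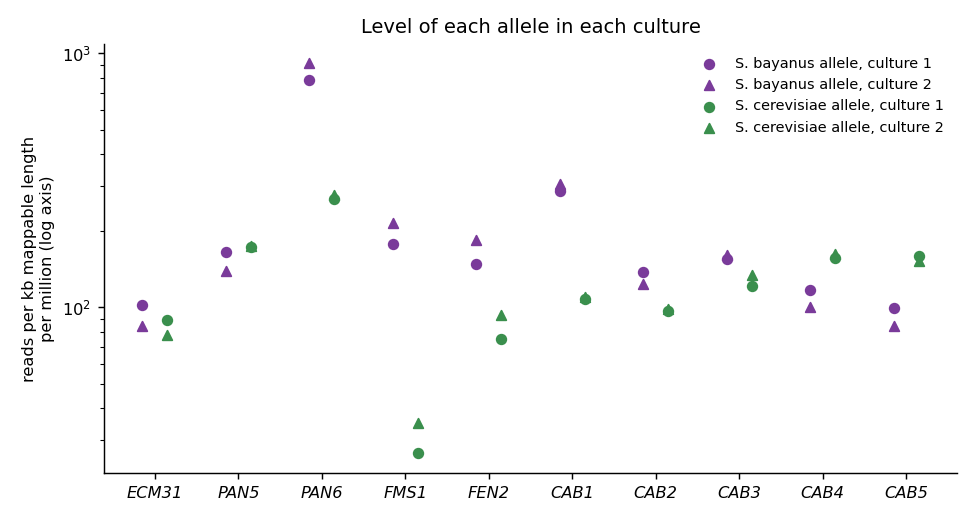
Level of each allele in RPKM, on a log axis, in culture 1 (circles) and culture 2 (triangles). The gap between the alleles is widest for FMS1, at 196 against 30.7 on average. The S. cerevisiae allele is the higher one in both cultures in PAN5, CAB4 and CAB5.

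For both alleles summed, levels in RPKM were scaled to the reads of both genomes together, not of a single genome. A summed level can therefore lie below that of an allele alone. On this scale PAN6 led at 571 ± 55.0 (SD, n = 2). It lay in the 89.2 and 90.4 percentiles of all tested genes in cultures 1 and 2. CAB1 followed at 206 ± 9.09, PAN5 at 162 ± 9.74 and CAB3 at 144 ± 6.03, and these genes kept their order in both cultures. CAB4, FEN2, CAB5, FMS1 and CAB2 came next, between 133 and 115, and each of these overlapped its neighbour in the order, so their ranks are not resolved. ECM31 was the lowest in both cultures, at 88.3 ± 10.5. The median over all tested genes was 92.0 in each culture.

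The sum over the 10 genes is likewise a description, as these genes were chosen with allele ratios known. Of their reads, 65.0% in culture 1 and 66.6% in culture 2 came from S. bayanus alleles, against 51.2% and 52.7% of all reads in the table. Without PAN6 the shares were 61.1% and 61.7%, and without PAN6 and FMS1 they were 57.5% and 57.5%.

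The ratios were next compared between the cultures, a contrast that is not part of the rule by which the genes were chosen. No change of the allele ratio was called in any of the 10 (0 of 10, edgeR interaction test of allele and culture with lanes as units), where 17.9% of all tested genes were called. At an unadjusted p under 0.05 there were 1256 of the 4197 tested genes and 2 of the 10, PAN5 and CAB4. PAN5 shifted by -0.28 (SE 0.10, edgeR, adjusted p = 0.0529), from lanes of -0.21 to 0.09 in culture 1 to -0.38 to -0.29 in culture 2, which do not overlap. CAB4 shifted by -0.29 (SE 0.12, edgeR, adjusted p = 0.0980). Its lanes only just missed an overlap, at -0.598 to -0.230 in culture 1 and -0.838 to -0.601 in culture 2. The S. bayanus shares of reads, before scaling, did overlap between the cultures in both genes. They were 47.5% to 52.2% and 46.0% to 47.8% for PAN5, and 39.9% to 46.4% and 37.6% to 41.4% for CAB4. How often lanes fail to overlap over all tested genes was not counted. PAN6 shifted by 0.14 (SE 0.08, edgeR, adjusted p = 0.213). FMS1, FEN2 and CAB1 shifted by -0.13 (SE 0.14), -0.03 (SE 0.13) and 0.05 (SE 0.11). The ratio was lower in culture 2 in 8 of the 10 genes, with a median shift of -0.12 against -0.03 over all tested genes. The shift lay above 0 in the other 2 and in 44.7% of all tested genes. This count was not stable, as the shifts of ECM31 (0.07), FEN2 (0.09) and CAB5 (0.03) lay above 0 without lane 3.

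Single runs decided some of these calls. Without lane 4 the shift of PAN6 was 0.28 and was called (edgeR, adjusted p = 0.0159), and without lane 5 that of PAN5 was -0.30 and was called (edgeR, adjusted p = 0.0452). After removal of the trend with the GC difference of the orthologs in each lane, the shift of CAB4 was -0.39 and was called (edgeR, adjusted p = 0.0180). The DESeq2 test called 0 of the 10, and 279 of all tested genes.

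**Figure D4:**
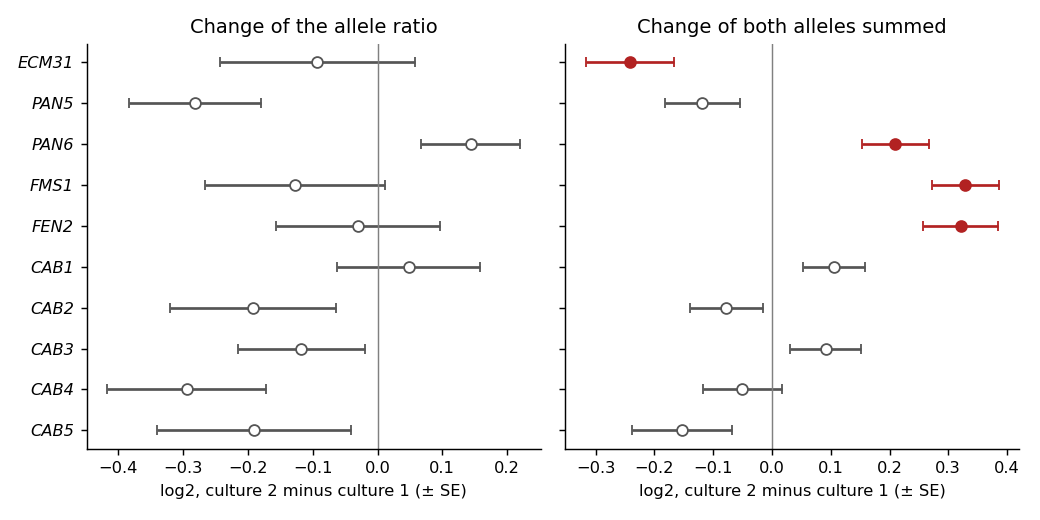
Change between the cultures as log2 of culture 2 minus culture 1 with its standard error, for the allele ratio (left) and for both alleles summed (right); filled red points passed the edgeR test at an adjusted p under 0.05. No ratio change passed, while the summed level was higher in culture 2 for PAN6, FMS1 and FEN2 and lower for ECM31.

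The summed level of both alleles changed between the cultures in 4 of the 10 genes, where 54.1% of all tested genes were called. It was higher in culture 2 in 3 of the 10, against 28.8% of all tested genes, and higher in culture 1 in 1, against 25.2%. FMS1 was higher in culture 2 by 0.33 on the log2 scale (SE 0.06, edgeR, adjusted p = 0.000166), or 1.26-fold. Its reads per 1000000 scaled reads were 138 to 158 in the lanes of culture 1 and 179 to 193 in those of culture 2, without overlap. How often summed levels fail to overlap between cultures over all tested genes was not counted. FEN2 was higher by 0.32 (SE 0.06, edgeR, adjusted p = 0.000609), at 150 to 169 against 180 to 214. Both alleles of FMS1 and of FEN2 were higher in culture 2. The S. bayanus and S. cerevisiae alleles of FMS1 stood at 177 and 26.6 RPKM in culture 1 and at 215 and 34.9 in culture 2. Those of FEN2 stood at 148 and 74.7 in culture 1 and at 184 and 93.6 in culture 2.

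PAN6 was higher in culture 2 by 0.21 (SE 0.06, edgeR, adjusted p = 0.00597), although its lanes overlapped, at 436 to 507 and 487 to 579 reads per 1000000. ECM31 was lower in culture 2 by 0.24 on the log2 scale, a change of -0.24 (SE 0.07, edgeR, adjusted p = 0.0130), at 79.6 to 91.9 against 67.4 to 77.6. These calls were less firm. Without lane 7, PAN6 gave 0.18 (edgeR, adjusted p = 0.0696) and ECM31 -0.19 (edgeR, adjusted p = 0.1003), and neither passed. With UCB lanes only, PAN6 gave 0.17 (edgeR, adjusted p = 0.0993) and ECM31 -0.19 (edgeR, adjusted p = 0.0966), and again neither passed. ECM31 also failed in DESeq2, at -0.25 (DESeq2, adjusted p = 0.0553), while PAN6 passed there (DESeq2, adjusted p = 0.00962). With lane totals in place of TMM factors, a setting chosen after seeing the data, the median change over all tested genes was -0.13 in place of -0.01, and calls over all tested genes split into 861 higher and 1730 lower in culture 2, against 1210 and 1059. FMS1 (0.21) and FEN2 (0.20) still passed under this setting, PAN6 (0.09, edgeR, adjusted p = 0.183) did not, and 5 of the 10 genes were called lower in culture 2. Without lane 7, PAN5 was called lower in culture 2 (-0.21, edgeR, adjusted p = 0.0234), and without lane 4, CAB1 was called higher (0.15, edgeR, adjusted p = 0.0478).

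The sequencing site, a technical batch, was not called for any of the 10 genes (0 of 10) or for any tested gene (0 of 4197, 0%), in an edgeR test of the ratio between sites with a term for the culture. At an unadjusted p under 0.05 there were 236 tested genes and 1 of the 10, FEN2, whose ratio at UCR minus UCB was -0.25 (SE 0.12, edgeR, adjusted p = 0.876). Allele ratios from the UCB lanes alone were 1.62 for PAN6, 2.70 for FMS1 and 1.45 for CAB1, and those from the UCR lanes alone were 1.67, 2.66 and 1.44.

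Other genes around the pathway came from 4 lists of 16 genes, of which 12 were measured. Of these 12, 2 were called with the S. bayanus allele higher, against 26.6% of all tested genes. Another 3 were called with the S. cerevisiae allele higher, against 26.9%. The median log2 ratio of the 12 was -0.17. The decarboxylase partners of CAB3, SIS2 (YKR072C) and VHS3 (YOR054C), were not called, at -0.27 (SE 0.09) and -0.20 (SE 0.12). SIS2 had 177 ± 7.41 and 213 ± 21.9 RPKM for its S. bayanus and S. cerevisiae alleles (SD, n = 2). VHS3 was much lower, at 25.2 ± 6.49 and 29.0 ± 7.88.

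Of the genes that lead to beta-alanine through polyamines, 4 of 6 were measured. SPE3 (YPR069C), the spermidine synthase gene, had a log2 ratio of 0.59 (SE 0.09) and was called, with 6158 and 4364 S. bayanus reads against 4183 and 2427. In the same list SPE4, the spermine synthase gene, was called with a higher S. bayanus allele, and SPE1, the ornithine decarboxylase gene, with a higher S. cerevisiae allele. ALD3, the remaining measured gene of this list, was not called, at 0.02 (SE 0.33). It had only 80 and 47 S. bayanus and 64 and 16 S. cerevisiae reads. SPE3 and SPE4 are related to each other in sequence. FMS1, which acts on the product of SPE4, had a ratio of 2.68, against 0.44 for SPE4.

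The genes that make ketoisovalerate, ILV2, ILV5 and ILV3, were 3 of 4 measured. In the allele test 0 of the 3 were called, against 53.5% of all tested genes. Of the 3 measured genes of coenzyme A use and transport, LYS5 and PCD1 were called toward S. cerevisiae and LEU5 was not called. PCD1 (YLR151C), a peroxisomal coenzyme A diphosphatase gene, had a log2 ratio of -1.14 (SE 0.29) on only 43 and 17 S. bayanus and 76 and 46 S. cerevisiae reads. In the comparison of cultures, 7 of the 12 genes had a higher summed level in culture 2, against 28.8% of all tested genes, and 0 a lower one, against 25.2%. The 7 were the 3 ILV genes, both decarboxylase partners, SPE1 and SPE3. The allele ratio changed between cultures in 2 of the 12, against 17.9% of all tested genes, by 0.20 in SPE3 and by -0.21 in ILV2.

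**Figure D5:**
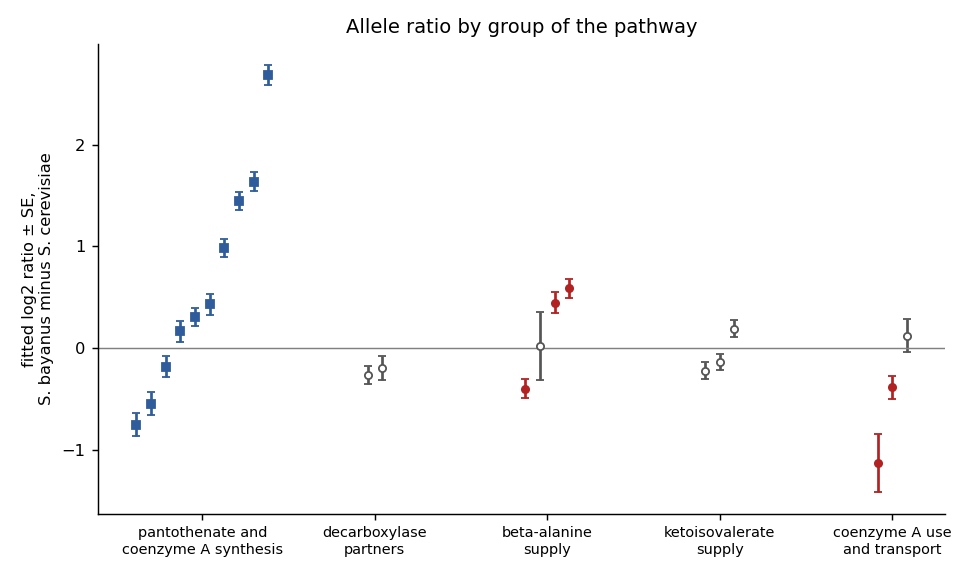
Fitted log2 allele ratio with its standard error for the 10 genes and for the measured genes of 4 neighbouring parts of metabolism; the 10 genes are blue squares without a call, and among the others filled red circles were called in the allele test and open circles were not. The 10 genes run from -0.76 to 2.68, while SPE3 at 0.59 is the highest of the other 12.

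The properties of the orthologs were compared next. The S. bayanus orthologs differed from the S. cerevisiae orthologs by between -1.25 and 4.57 percentage points in GC, with a median of 1.51 against 1.75 over all tested genes. The difference was 4.57 in CAB4, 4.19 in CAB2, 3.995 in PAN6, 3.49 in CAB1, 1.94 in CAB3, 1.07 in CAB5, 0.94 in FMS1, 0.80 in PAN5, -0.89 in FEN2 and -1.25 in ECM31. After removal of the GC trend per culture the log2 ratio was 2.76 for FMS1, 1.498 for PAN6, 1.32 for CAB1, 1.201 for FEN2, 0.41 for ECM31, 0.29 for CAB2, 0.29 for CAB3, -0.10 for PAN5, -0.69 for CAB5 and -0.70 for CAB4. ECM31, at 0.16 before this step, moved most and was then among the called genes, which numbered 9 of the 10 in place of 8. Over all tested genes 2349 were then called, in place of 2247. Mappable lengths of the orthologs differed most in CAB5, by -4.16% (599 and 625 bases).

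Genes beside the 10 were listed as the next measured open reading frames by systematic number. For FMS1 these were YMR018W and YMR021C, with log2 ratios of 0.38 (SE 0.42) and 0.27 (SE 0.11). For PAN6, on the left arm of chromosome IX, YIL144W had -0.41 (SE 0.11) and YIL146C 0.43 (SE 0.14). For CAB1, on the right arm of chromosome IV, YDR530C had -0.51 (SE 0.12) and YDR532C -0.08 (SE 0.13). Of the 16 genes beside the 8 called genes, 5 were called in the direction of their neighbour, 4 in the other direction and 7 not at all. Over all tested genes 53.5% were called. Beside CAB5, YDR197W had -1.19 (SE 0.13), larger than the -0.76 of CAB5 and in the same direction, and it was the 1 gene of the 16 at 2-fold or more. Beside ECM31, YBR175W had 1.41 (SE 0.10). YDR197W and YBR175W were named after their values were seen. Strand is not given for the counts, so reads from overlapping transcripts cannot be told apart.

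In the authors' deposited table, 6 of the 10 genes carry a call for a higher S. bayanus allele, 2 for a higher S. cerevisiae allele and 2 no call. Each of the 10 has the same status here with edgeR, either called in the same direction or not called. The natural log ratios in the authors' deposited table were 1.94 and 1.91 for FMS1, 1.13 and 1.29 for PAN6 and -0.41 and -0.47 for CAB5 in cultures 1 and 2. They are not on the log2 scale used here and do not carry its TMM scaling, so their sizes are not directly comparable.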

How the data were processed

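The deposited table of the authors holds unnormalised read counts for each allele in each lane, with mappable lengths, natural log ratios, resampling p-values (not used here) and a call score of -1, 0 or 1, per the authors' column description. Mapping used Bowtie, per the submitters' processing notes; its settings, the genome builds and the rule for shared reads are not given in the sources consulted. Another 4 columns of summed counts were not used. Gene symbols are standard S. cerevisiae names, which the table does not hold.

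Lane counts were summed per culture and allele. The quasi-likelihood test of edgeR 4.0.16 (R 4.3.3) used TMM factors per column, mappable length as an offset and the culture as a block; the culture and site tests used 16 lane columns with the lane as a block, and summed levels used 8 lanes with a term for site. Genes needed 10 reads over both alleles in each culture; 4197 met this and 41 did not, and all 10 genes described here did. Standard errors were derived from the fold change and the test statistic. DESeq2 1.42.0 and other scalings, filters, sites and left-out lanes were alternatives. The genes named are the 10 listed, those of 4 neighbouring lists and the genes beside ratios of 2-fold or more. Genes of the 4 lists were given values when called at 1.5-fold or more, as were the decarboxylase partners. Naming SPE4, SPE1, ALD3, LYS5, LEU5 and the ILV genes, which stand outside this rule, was decided after their values were seen. The genes and lists were chosen with earlier results of these data known.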

Additional observations from a re-analysis of the deposited data

How the results depend on the processing

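The allele test called 2247 genes, and 866 with no replicate block, under which 5 of the 10 pathway genes were called rather than 8. No other alternative moved these counts by more than 1.5 times. Over the 20 alternatives with a test, 5 to 10 of the 10 and 866 to 3172 of all tested genes were called. CAB2 was lost with DESeq2 and with no replicate block, and CAB4 with no replicate block. CAB3 was lost with both of these, with upper quartile factors, without the length offset and without lane 7. No ratio of the 10 genes changed sign under the 22 alternatives, which include each culture alone. With 1 library size for both alleles the median ratio over all genes was 0.11 in place of -0.00, and calls over all genes split into 1320 toward S. bayanus and 813 toward S. cerevisiae, against 1118 and 1129; the split in the 10 genes stayed at 6 and 2. The ratio change between cultures was called in 752 genes, in 408 with UCB lanes only and in 279 with DESeq2. Of the 10 genes, 1 was called after removal of the GC trend, and 0 to 1 with each lane left out. Over all tested genes the counts were 824 and 586 to 660. The test of sites called 0 to 5 genes with each lane left out, the 5 without lane 4. With lane totals without TMM, 7 of the 10 genes were called for their summed level, against 4. Over all tested genes 2591 were called under this setting, against 2269. Depth limits PCD1 and ALD3 most; the other lists' counts were not recomputed under the alternatives.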
